A study of Mus musculus with 47 samples.

Results

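The prefrontal cortex (PFC) of mice given an inhibitor of PSD-95 was compared with the PFC of mice given saline, gene by gene over the whole transcriptome. The libraries were chosen by their titles: 8 labelled PSD-95i and 8 labelled Saline, all from PFC, which makes 16 of the 47 libraries in the series. The other 8 PFC libraries, labelled PICK1i, entered the same model and helped to estimate the spread of each gene, and the hippocampal libraries (8 PSD-95i, 8 PICK1i, 7 saline) served for 1 comparison between tissues. The labels' protocol describes diet-induced obese mice with a mean body weight of 53 g, housed in pairs, with 1 injection a day over 5 days of saline, of 25 mg/kg UCCB01-147 or of 56 mg/kg mPD5, and killing 2 h after the last injection. UCCB01-147 was taken as the PSD-95 inhibitor from general knowledge of the compound. The same protocol names the hypothalamus as the tissue and 6 saline mice, which fits neither the tissue labels nor the 8 saline libraries, so its dose and times may not be those of these mice. Strain, sex and age are not in the labels, and nothing there says that each library is a separate mouse, so the p-values measure the spread between libraries.

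PSD-95, encoded by Dlg4, is the main scaffold of the postsynaptic density of excitatory synapses, where it ties NMDA receptors and, through auxiliary subunits, AMPA receptors to signalling enzymes. The cortex is layered: intratelencephalic neurons of the superficial layers lie below the pial surface, corticothalamic neurons of layer 6 and the thin layer 6b lie at its base, and the myelinated white matter lies beneath them with the striatum close by in frontal sections. Oligodendrocytes make the myelin and are densest in the deep layers and in the white matter, so the genes of deep neurons and of myelin both depend on how far a dissected piece reaches from the surface. In bulk tissue, fewer cells of a type and less RNA per cell cannot be told apart.

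The 16 libraries held between 6534326 and 12673677 estimated counts. Mitochondrially encoded transcripts took 9.68% of the counts on average after the inhibitor and 9.97% after saline. Genes of cortical layers and of interneurons were present in every library, and the summed level of 8 choroid plexus and ependymal genes lay between 6.51 and 13.5 CPM (a gene's count scaled to the size of its library). Saline replicate 1 stood apart with striatal genes at a summed 728 CPM against a median of 241 in its group. Saline replicate 4 held liver transcripts, which were chosen as a list after the data were seen: their summed level was 89.1 CPM there, against 18.7 in saline replicate 1 and at most 11.97 in the other 14 libraries of the comparison. PSD-95i replicate 6 held 61.8 CPM of olfactory bulb genes against a median of 22.2 in its group. Dlg4 itself lay between 921 and 1077 CPM after saline and between 950 and 1066 after the inhibitor, with a log2 change of -0.02 ± 0.06 (SE). The inhibitor acts on the protein, so this level does not check the labels.

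After the PSD-95 inhibitor, genes of myelinating oligodendrocytes and of layer 6 neurons were at lower levels in PFC and genes of layers 2 to 4 were at higher levels, while no single gene passed the test over all genes. edgeR's quasi-likelihood test called 0 of 14911 genes (0%) at an adjusted p under 0.05, with a smallest adjusted p of 0.32. At an unadjusted p under 0.05 it counted 946 genes (6.34%), of which 532 were lower (3.57%) and 414 higher (2.78%), where evenly spread p-values would give 746. DESeq2 called 2 genes (0.0134%), Zfpm2 and Gjc3, and counted 911 under an unadjusted 0.05, and limma voom called 0 and counted 1227. Without saline replicate 1 edgeR's count under 0.05 was 599. Of the 946 genes, 88 carry predicted gene model names and are not named here. Hereafter "under 0.05" means edgeR's p before adjustment for the number of genes.

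Genes of mature oligodendrocytes lay on one side. All 15 genes of the myelin membrane list had negative log2 changes, from -0.53 to -0.27 with a median of -0.39, and 14 of them were under 0.05. The list of oligodendrocyte junctions, lipid enzymes and metabolism also lay below 0 in 12 of 12 genes, with a median of -0.42, and 10 were under 0.05. Over all genes tested, 51.1% had a negative log2 change, 3.57% were under 0.05 and lower, and the median absolute change was 0.07.

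Gjc3, which encodes a connexin of the gap junctions of myelinating glia (chr5:137953461-137963098, minus strand, GRCm38), lay between 25.5 and 37.1 CPM after saline with a median of 34.6. After the inhibitor it lay between 20.1 and 28.4 CPM with a median of 25.5. Every PSD-95i library was below the saline median, and the groups overlapped because saline replicate 4 was as low as the PSD-95i libraries. The log2 change was -0.44 ± 0.09 (SE), with an adjusted p of 0.32 in edgeR. DESeq2 gave an adjusted p of 0.0433, and over the 26 alternatives the adjusted p ran from 0.0433 to 1. Without saline replicate 4 edgeR's adjusted p was 0.0486.

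Tmem88b, a transmembrane protein gene of mature oligodendrocytes, had medians of 44.2 CPM after saline (26.98 to 49.9) and 28.4 after the inhibitor (22.8 to 35.5), a log2 change of -0.50 ± 0.12 (SE). Cldn11, the claudin of the tight junctions between myelin wraps, had medians of 65.9 CPM (51.3 to 75.05) and 46.7 (39.2 to 61.2), a log2 change of -0.42 ± 0.10 (SE). All 8 PSD-95i libraries were below the saline median for both genes, and the ranges of the groups overlapped. Mal, a proteolipid of myelin vesicle traffic, Ermn, a cytoskeletal protein of late oligodendrocytes, and Fa2h, which hydroxylates the fatty acids of myelin lipids, had log2 changes of -0.42, -0.53 and -0.50. Gjb1, another connexin of oligodendrocytes, had a log2 change of -0.50.

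Transcription factors that drive oligodendrocyte identity lay on the same side. All 8 regulators had negative log2 changes, with a median of -0.32, and 4 were under 0.05: Sox10 (-0.34), Nkx6-2 (-0.41), Nkx2-2 (-0.39) and Myrf (-0.30), the factor that switches on myelin genes. Oligodendrocyte precursor genes were nearer to 0, with a median of -0.12 over 10 genes, 7 of them negative and 2 under 0.05. Those were Cspg4, the NG2 proteoglycan of precursors, at -0.21 and Gpr17, a receptor of cells about to mature, at -0.24. Over all genes 51.1% were negative, and 3.57% were under 0.05 and lower. Whether precursors and mature cells differed was not tested.

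Sox10 binds short SOX-type words in the promoters of myelin genes, so the 250 bases before the start sites of the 3 mature oligodendrocyte genes with the smallest p among those with 1 annotated start are shown, from RefSeq on GRCm38.p6. Capitals mark the word ACAAAG, the word ACAATG, the word TCAAAG or the word TCAATG, read on either strand.
Gjc3, chr5:137963099-137963348, minus strand: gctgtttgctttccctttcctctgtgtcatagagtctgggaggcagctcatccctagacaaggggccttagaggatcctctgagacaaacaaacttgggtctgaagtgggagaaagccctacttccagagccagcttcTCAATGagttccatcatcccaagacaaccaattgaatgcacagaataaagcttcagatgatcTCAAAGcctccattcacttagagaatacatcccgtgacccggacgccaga
Tmem88b, chr4:155785875-155786124, minus strand: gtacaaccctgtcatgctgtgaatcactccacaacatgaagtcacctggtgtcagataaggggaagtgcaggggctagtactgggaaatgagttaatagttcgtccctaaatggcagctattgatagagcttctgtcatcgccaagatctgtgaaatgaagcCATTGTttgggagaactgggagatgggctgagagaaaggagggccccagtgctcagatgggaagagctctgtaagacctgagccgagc
Cldn11, chr3:31149670-31149919, plus strand: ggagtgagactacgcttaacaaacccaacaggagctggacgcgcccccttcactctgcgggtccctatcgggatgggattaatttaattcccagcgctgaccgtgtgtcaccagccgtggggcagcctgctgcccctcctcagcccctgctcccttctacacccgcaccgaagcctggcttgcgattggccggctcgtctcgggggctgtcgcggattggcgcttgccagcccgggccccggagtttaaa
The windows of Gjc3, Tmem88b and Cldn11 hold 2, 1 and 0 of these words. Among all 32851 windows of this length 39.4% hold at least 1. Of the 27 mature oligodendrocyte genes 20 have a window, 16 of them only 1, and 14 hold a word in at least 1 window. The share is of windows and the count is of genes, so they are not compared.

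Neuronal genes were ordered by layer. The layer 2 and 3 list had a median log2 change of 0.27, with 10 of 12 genes positive and 7 under 0.05, all higher. The list of layer 4 and upper layer 5 had a median of 0.40, with 5 of 5 positive and 3 under 0.05. The median was -0.16 for layer 5 (10 genes) and -0.14 for near-projecting neurons of layers 5 and 6 (3 genes tested of 5). At the base of the cortex it was -0.78 for layer 6 corticothalamic genes, -1.35 for genes of layer 6 intratelencephalic and claustral neurons and -0.70 for layer 6b. Every one of the 18 genes tested in these 3 lists was negative, and 12 entries were under 0.05. In these 10 lists of layers and mature oligodendrocytes, 52 of 83 distinct genes were under 0.05, beside 6.34% of all genes. The lists were chosen with earlier results of these data known, so these counts describe the lists and carry no test.

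**Figure D1:**
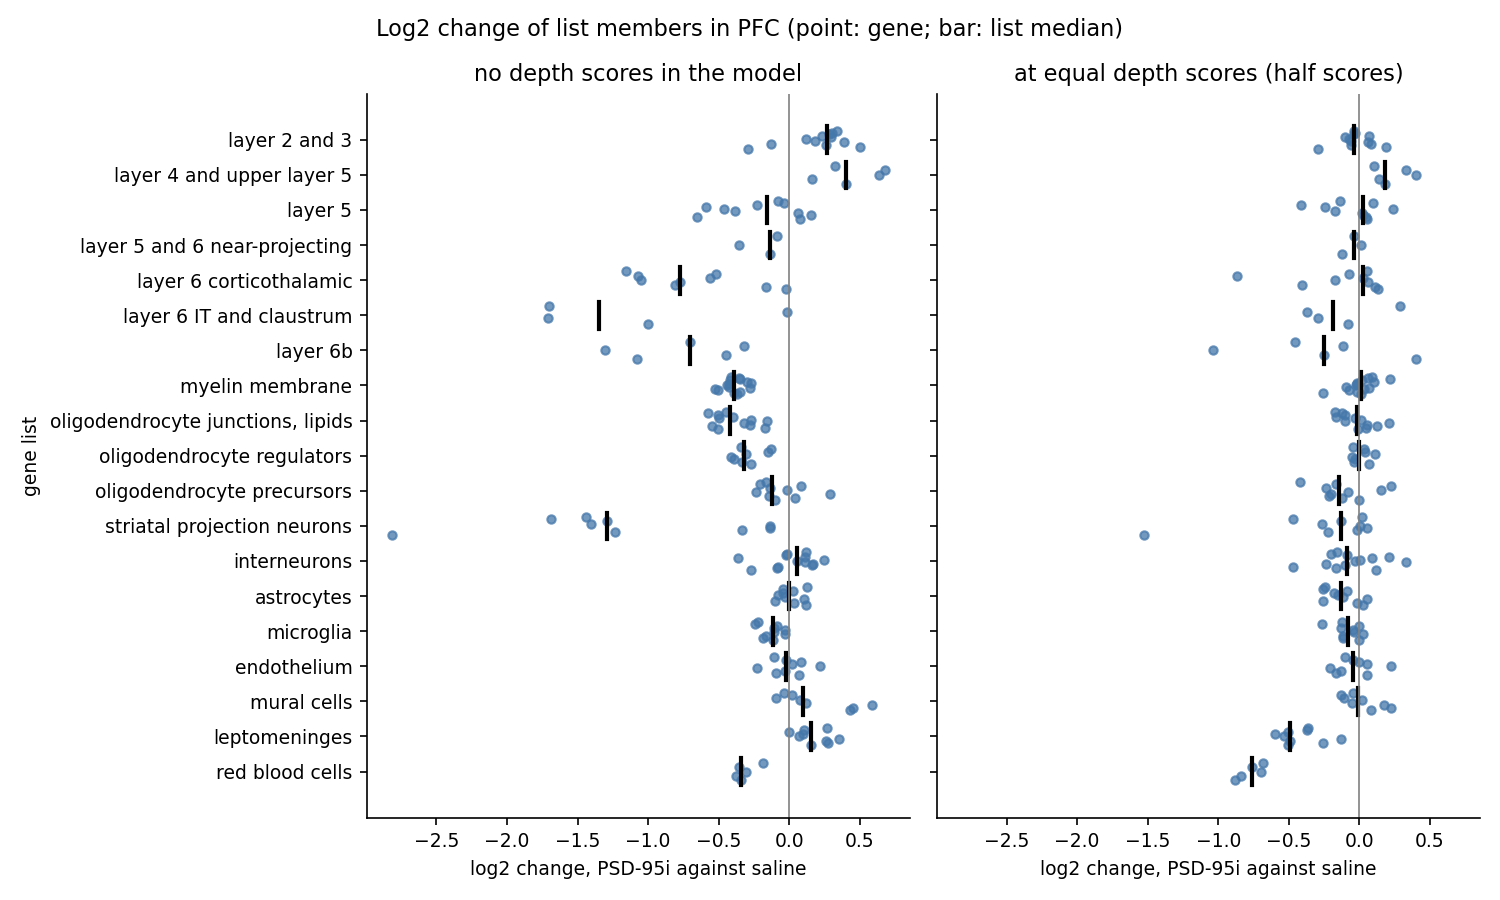
Log2 change between PSD-95i and saline (horizontal axis) for each tested gene of 19 lists (points) with the list median (bar), without depth scores in the model on the left and at equal depth scores on the right. On the left the medians run from 0.27 and 0.40 in layers 2 to 4 to -1.35 in layer 6 intratelencephalic neurons and near -0.4 in oligodendrocytes, and on the right those of the layer 2 and 3, corticothalamic and myelin lists lie within 0.04 of 0.

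Among superficial genes, Cux2, a homeodomain factor of upper-layer neurons, lay between 201 and 411 CPM after saline (median 281) and between 268 and 428 after the inhibitor (median 362). The log2 change of Cux2 was 0.31 ± 0.10 (SE), and 7 of 8 PSD-95i libraries were above the saline median. Rasgrf2, a Ras activator of layer 2 and 3, and Agmat had log2 changes of 0.28 and 0.50. Of layer 4 genes, Scnn1a, an epithelial sodium channel subunit, had a log2 change of 0.64, Rspo1, a Wnt agonist, 0.68, and Rorb, the nuclear receptor of layer 4 neurons, 0.33, which was not under 0.05. Endou, an endoribonuclease gene of the same list, had 0.40. In layer 5, 7 of 10 genes were negative and 3 positive, and 2 were under 0.05. Bcl11b of that list, a factor of subcortically projecting neurons, had -0.59, or -0.39 without saline replicate 1.

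Zfpm2, a GATA cofactor found in corticothalamic neurons (chr15:40655035-41104592, plus strand), had the smallest p of all genes. It lay between 7.36 and 14.04 CPM after saline (median 12.9) and between 5.31 and 10.01 after the inhibitor (median 6.03). The lowest saline value was that of replicate 4 and the highest PSD-95i values those of replicates 5 and 6, so the groups overlapped through these libraries. Its log2 change was -0.81 ± 0.16 (SE), with an adjusted p of 0.32 in edgeR. DESeq2 gave an adjusted p of 0.0192, edgeR without saline replicate 4 gave 0.0486, and over the 26 alternatives it ran from 0.0192 to 1.

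Other corticothalamic genes had wider spreads. Rprm, a cell cycle inhibitor used as a layer 6 marker, lay between 12.4 and 64.5 CPM after saline (median 44.2) and between 8.73 and 48.8 after the inhibitor (median 15.7), a log2 change of -1.05 ± 0.36 (SE). Hs3st4, a heparan sulfate sulfotransferase, and Tle4, a corepressor, had log2 changes of -0.78 and -0.52. Nr4a2, a nuclear receptor of claustrum and deep intratelencephalic neurons that is also an immediate early gene, lay between 2.86 and 88.6 CPM after saline (median 40.7) and between 3.04 and 41.8 after the inhibitor (median 7.93). Its lowest saline library was below every PSD-95i library, so the ranges overlapped fully at the bottom, and the log2 change was -1.71 ± 0.60 (SE). Gnb4, a G protein subunit of claustral neurons, and the layer 6b gene Ctgf, a secreted matrix protein, had log2 changes of -0.999 and -0.70. Nxph3, a neurexophilin of layer 6b, and Moxd1, a monooxygenase, had -1.08 and -0.45.

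Whether these genes moved together within a treatment was read from 3 scores per library: the mean log2 CPM of 27 mature oligodendrocyte genes, of 31 deep-layer genes and of 12 layer 2 and 3 genes. The oligodendrocyte score was 5.08 ± 0.24 after saline and 4.71 ± 0.20 after the inhibitor (SD, n = 8 each). The deep-layer score was 4.03 ± 0.44 and 3.44 ± 0.43, and the superficial score 5.72 ± 0.19 and 5.92 ± 0.13. The laminar score, which is the deep-layer minus the superficial score, had a mean of -1.69 after saline and -2.48 after the inhibitor. These differences describe the groups and carry no test, since the lists were chosen with results of these data known. In the PICK1i libraries the oligodendrocyte and deep-layer scores were 4.87 ± 0.25 and 3.76 ± 0.26 (SD, n = 8).

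The scores also separated libraries of the same treatment. Saline replicate 4 had an oligodendrocyte score of 4.65, a deep-layer score of 3.12 and a superficial score of 6.09, inside the range of the PSD-95i libraries. PSD-95i replicate 6 had 5.01, 4.20 and 5.68, which lay among the saline libraries. The relations between scores are given as descriptions without a p, since the lists were chosen with results known and the group means differ. Over the 16 libraries the oligodendrocyte and superficial scores had a Pearson r of -0.86 and a Spearman rho of -0.86. Within saline r was -0.90 and rho -0.88. Within PSD-95i r was -0.60 and rho -0.38. Without the 2 libraries farthest from the median oligodendrocyte score, r was -0.87 over both groups, -0.79 within saline and -0.50 within PSD-95i. Within the 8 PICK1i libraries r was -0.92.

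The deep-layer and superficial scores had r = -0.84 over the 16 libraries and rho = -0.89. Within saline r was -0.83 and rho -0.74, and within PSD-95i r was -0.71 and rho -0.83. Without the 2 libraries farthest in deep-layer score r was -0.84 over both groups, -0.97 within saline and -0.48 within PSD-95i. Within the 8 PICK1i libraries r was -0.52 and rho -0.36, and r turned to 0.35 without the 2 farthest. The oligodendrocyte and deep-layer scores had r = 0.66 over the 16 libraries, rho = 0.72 and r = 0.75 without the 2 farthest. That relation did not hold within PSD-95i, where r was 0.08 and rho 0, though r was 0.63 without the 2 farthest libraries. Within saline r was 0.74 and rho 0.71, and r was 0.38 without the 2 farthest libraries, so it rested on those. Within PICK1i r was 0.48 and rho 0.36, and r was 0.37 without the 2 farthest.

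**Figure D2:**
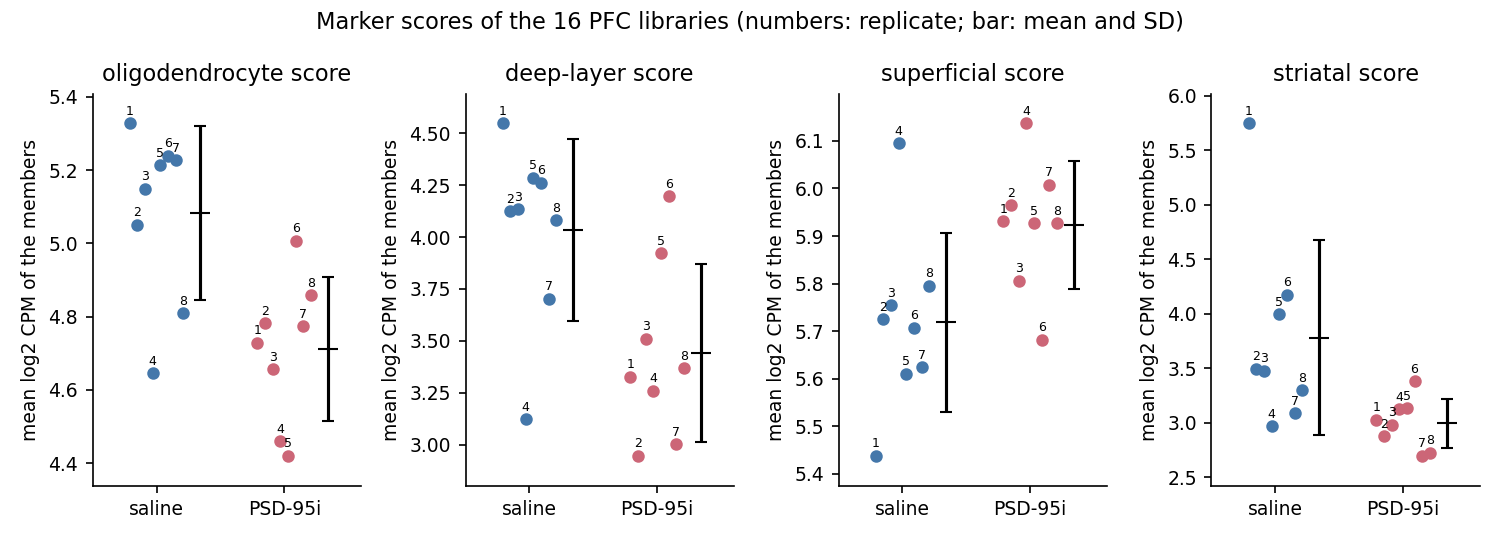
Mean log2 CPM of the oligodendrocyte, deep-layer, superficial and striatal genes (vertical axes) in each of the 8 saline and 8 PSD-95i libraries, numbered by replicate, with the group mean and SD. Saline replicate 4 lies with the PSD-95i libraries and PSD-95i replicate 6 with the saline libraries in the 3 cortical scores, and saline replicate 1 is highest in the striatal score at 5.75.

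Genes of striatal projection neurons, which lie outside the cortex, were at lower levels too. All 9 tested of 10 had negative log2 changes, with a median of -1.29. Of these 6 were under 0.05, beside 3.57% of all genes under 0.05 and lower. Adora2a, an adenosine receptor of the indirect striatal pathway, lay between 2.28 and 34.1 CPM after saline (median 4.0) and between 1.04 and 3.68 after the inhibitor (median 2.68). Its highest value was that of saline replicate 1, and its log2 change was -1.69 ± 0.52 (SE), or -0.78 without that library. Without saline replicate 1 the median of the list was -0.73, and the difference in the striatal score went from -0.79 to -0.51. In hippocampus the same 9 genes had a median of -2.04 and all 9 were under 0.05 (1.9% of all genes there). The part of striatal tissue in the PFC values was not tested.

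To separate what goes with the depth genes from what remains, each gene was fitted again with the oligodendrocyte and laminar scores as covariates, so that PSD-95i and saline were compared at equal scores. The slopes of these covariates come from variation among libraries of one treatment. No gene was called by edgeR (0%) and the smallest adjusted p was 1. Under an unadjusted 0.05 edgeR counted 406 genes (2.72%), 244 lower (1.64%) and 162 higher (1.09%). Evenly spread p-values would give 746, so fewer genes were under 0.05 than that. DESeq2 called 0 and counted 323, and limma voom called 0 and counted 742. Standard errors were larger at equal scores, by a median factor of 1.26. The scores and the groups share part of their variation, and how much of the factor comes from this was not tested. Of the 946 genes under 0.05 without the scores, 132 (0.885% of all genes) were under 0.05 in the same direction at equal scores, 72 lower and 60 higher, and 0 in the opposite one. Their number was 78 without saline replicate 4 and 73 without saline replicates 1 and 4.

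Over all genes the median absolute log2 change was 0.07 in both fits. The 946 genes were chosen by their p without the scores, so their sizes in the 2 fits are not compared. Of the 894 genes outside the layer and oligodendrocyte lists, 130 were under 0.05 in both fits. An effect of the inhibitor on the oligodendrocyte or layer genes themselves would be taken up by the scores, and cannot be told apart from a difference in the tissue sampled.

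**Figure D3:**
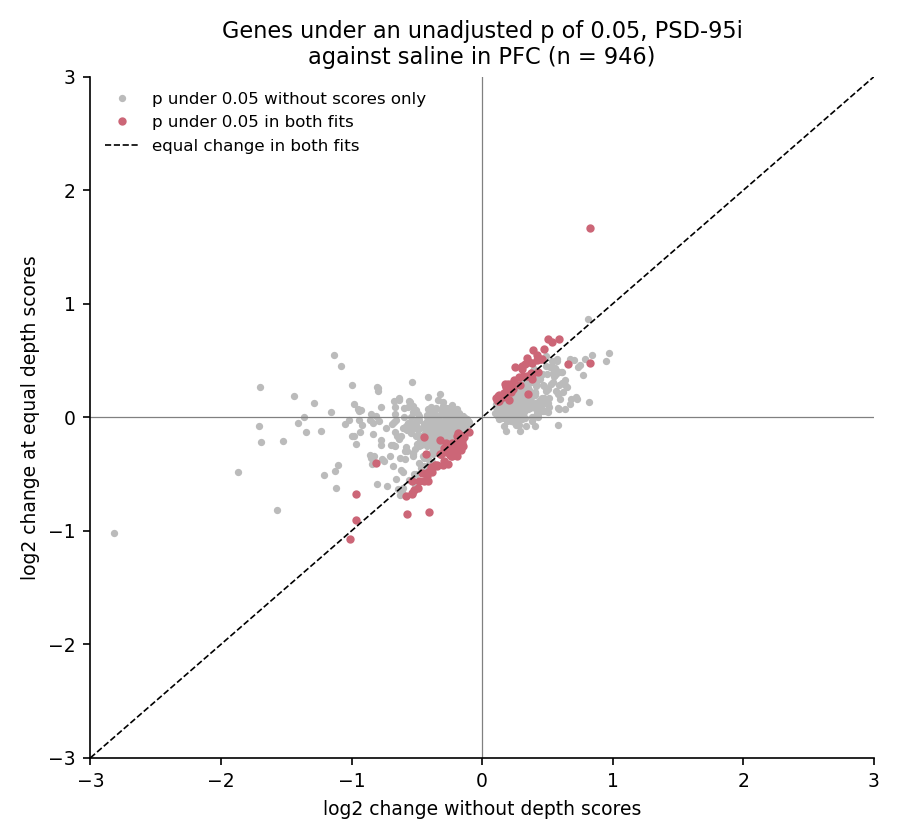
Log2 change of the 946 genes with an unadjusted p under 0.05, without depth scores (horizontal) and at equal depth scores (vertical). Grey points were under 0.05 without the scores only, red points are the 132 genes under 0.05 in both fits, and the dashed line marks equal changes.

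For the list genes themselves, the members of each score were split into odd and even ones. Odd members were tested with scores of the even ones and the reverse, so that no gene was in its own score. The other members of the same lists stayed in the scores, so a shift shared by such a list is taken out whatever its cause. The regulators and the list of layer 4 and upper layer 5 are in no score. They were tested with the scores of the odd members, as were all genes outside the scores. With these scores 3 of the 83 layer and oligodendrocyte genes were under 0.05, beside 3.33% of all genes (1.85% lower and 1.48% higher). The medians were 0.01 for the myelin membrane, -0.02 for junctions and lipids, 0.00 for the regulators, -0.04 for layers 2 and 3, 0.02 for layer 5 and 0.03 for corticothalamic genes. With 2 surrogate variables in place of the scores the myelin membrane median stayed below 0, as given with the alternatives below. For layer 4 and upper layer 5 the median was 0.18, against 0.40 without scores, with 5 of 5 genes positive and 0 under 0.05. With the full scores it was 0.16, and 0.08 without saline replicate 4. It was -0.25 in layer 6b and -0.19 in layer 6 intratelencephalic neurons, again with 0 under 0.05. Striatal genes, none of which is in the scores, had a median of -0.13 and 0 under 0.05. With the full scores their median was 0.01, and it ran from -0.19 to 0.22 (without PSD-95i replicate 6) with 1 library left out, so its sign was not stable.

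The 3 list genes under 0.05 with these scores were Zfpm2, Gjc3 and the myelin gene Mobp, the last higher and named because it completes the count. Zfpm2 had a log2 change of -0.41 where Hs3st4, Tle4 and Rprm had 0.06, -0.07 and -0.17. Gjc3 had a log2 change of -0.18, and Tmem88b and Cldn11 had -0.08 and -0.09. Within a treatment Gjc3 had a slope of 0.78 log2 units per unit of oligodendrocyte score and of -0.04 per unit of laminar score. Zfpm2 had a slope of 0.61 per unit of laminar score and of -0.20 per unit of oligodendrocyte score. These slopes come from the fit with the full scores. Gjc3 is a member of the oligodendrocyte score and Zfpm2 of the deep-layer part of the laminar score. The slopes of 0.78 and 0.61 therefore partly relate each gene to itself.

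**Figure D4:**
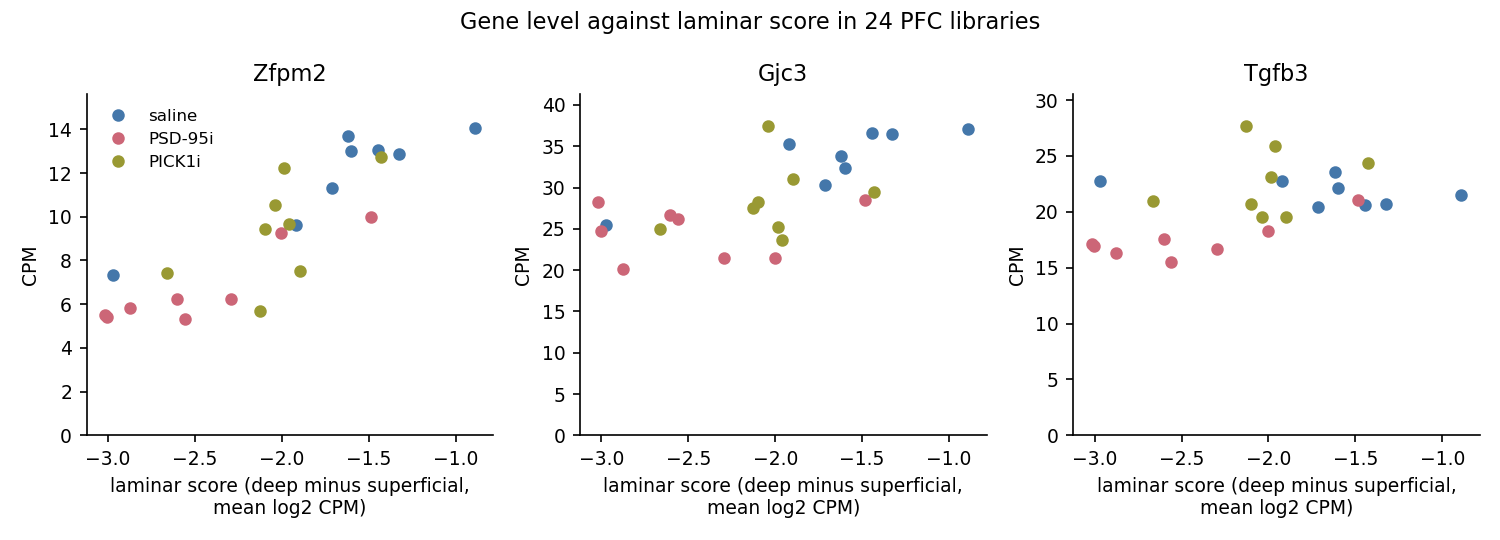
CPM of Zfpm2, Gjc3 and Tgfb3 (vertical axes) against the laminar score (horizontal) in the 24 PFC libraries, coloured by treatment. The saline library with the lowest laminar score, replicate 4 at -2.97, has the lowest Zfpm2 of its group, and Tgfb3 is between 15.5 and 21.04 CPM in PSD-95i libraries and between 20.4 and 23.6 in saline libraries.

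Tgfb3, a ligand of the transforming growth factor beta family (chr12:86056745-86079041, minus strand), had nearly the same change in both fits. It lay between 20.4 and 23.6 CPM after saline (median 21.8) and between 15.5 and 21.04 after the inhibitor (median 17.02). All 8 PSD-95i libraries were below the saline median, and the groups overlapped through PSD-95i replicate 6 alone. The log2 change was -0.32 ± 0.08 (SE) without the scores (adjusted p = 0.625, edgeR) and -0.32 ± 0.09 (SE) at equal scores (adjusted p = 1, edgeR). Without saline replicate 4 the value at equal scores was -0.25. In the PICK1i libraries it lay between 19.5 and 27.7 CPM. Exons of 2 predicted genes overlap Tgfb3 on the opposite strand.

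The other genes of this ligand and receptor family were looked up after that value was seen. Tgfb1 and Tgfb2, the other ligands, had log2 changes of -0.30 ± 0.14 and -0.24 ± 0.11 (SE), and Tgfbr1, the signalling receptor, had -0.23 ± 0.09 (SE), all under 0.05. At equal scores the values were -0.42, -0.27 and -0.24, and those of Tgfb1 and Tgfbr1 were under 0.05. The receptors Tgfbr2 and Tgfbr3 had -0.06 and 0.05 without and -0.18 and -0.19 at equal scores, and Tgfbr3 was also below 0 without the scores when PSD-95i replicate 4 or 7 was left out. The smallest adjusted p of the 6 was 0.625 in edgeR.

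Microglial genes lay slightly below 0 in both fits, as did astrocyte genes with scores in the model. All 10 microglial markers were negative without the scores, beside 51.1% of all genes, with a median of -0.11. Of the 10, 3 were under 0.05, beside 3.57% of all genes under 0.05 and lower. Among these were Cx3cr1, the fractalkine receptor, at -0.22 and P2ry12, the ADP receptor of surveying microglia, at -0.24. P2ry12 lay between 23.6 and 32.3 CPM after saline (median 28.3) and between 21.2 and 26.6 after the inhibitor (median 23.02), with all 8 PSD-95i libraries below the saline median. With scores in the model 9 of the 10 were negative, beside 52.7% of all genes, and the median was -0.08. P2ry12 alone was under 0.05, at -0.27, beside 1.85% of all genes under 0.05 and lower. The related receptor P2ry13 and the macrophage gene Adgre1, picked after their values were seen, had log2 changes of -0.29 and -0.52 without the scores and -0.27 and -0.64 at equal scores.

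The 8 libraries of each treatment did not overlap for 2 genes (0.0134%), both lower after the inhibitor, and for 0 higher (0%). Acbd3, a Golgi scaffold that recruits a lipid kinase (chr1:180726043-180754204, plus strand), lay between 39.6 and 45.3 CPM after saline and between 35.1 and 38.8 after the inhibitor. Its log2 change was -0.18 ± 0.05 (SE) and -0.16 at equal scores, under 0.05 in both. Gosr1, a SNARE of traffic into and within the Golgi (chr11:76726602-76763579, minus strand), lay between 47.1 and 51.9 CPM and between 39.8 and 46.3. Its log2 change was -0.16 ± 0.05 (SE) and -0.19 at equal scores, again under 0.05 in both. Both changes were small beside those of the layer genes, and neither passed adjustment in edgeR (adjusted p = 0.638 and 0.651). The 2 genes were singled out after their values were seen, and full separation of the groups itself favours a small p without the scores. How many of the 14911 genes would separate without any effect was not tested.

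**Figure D5:**
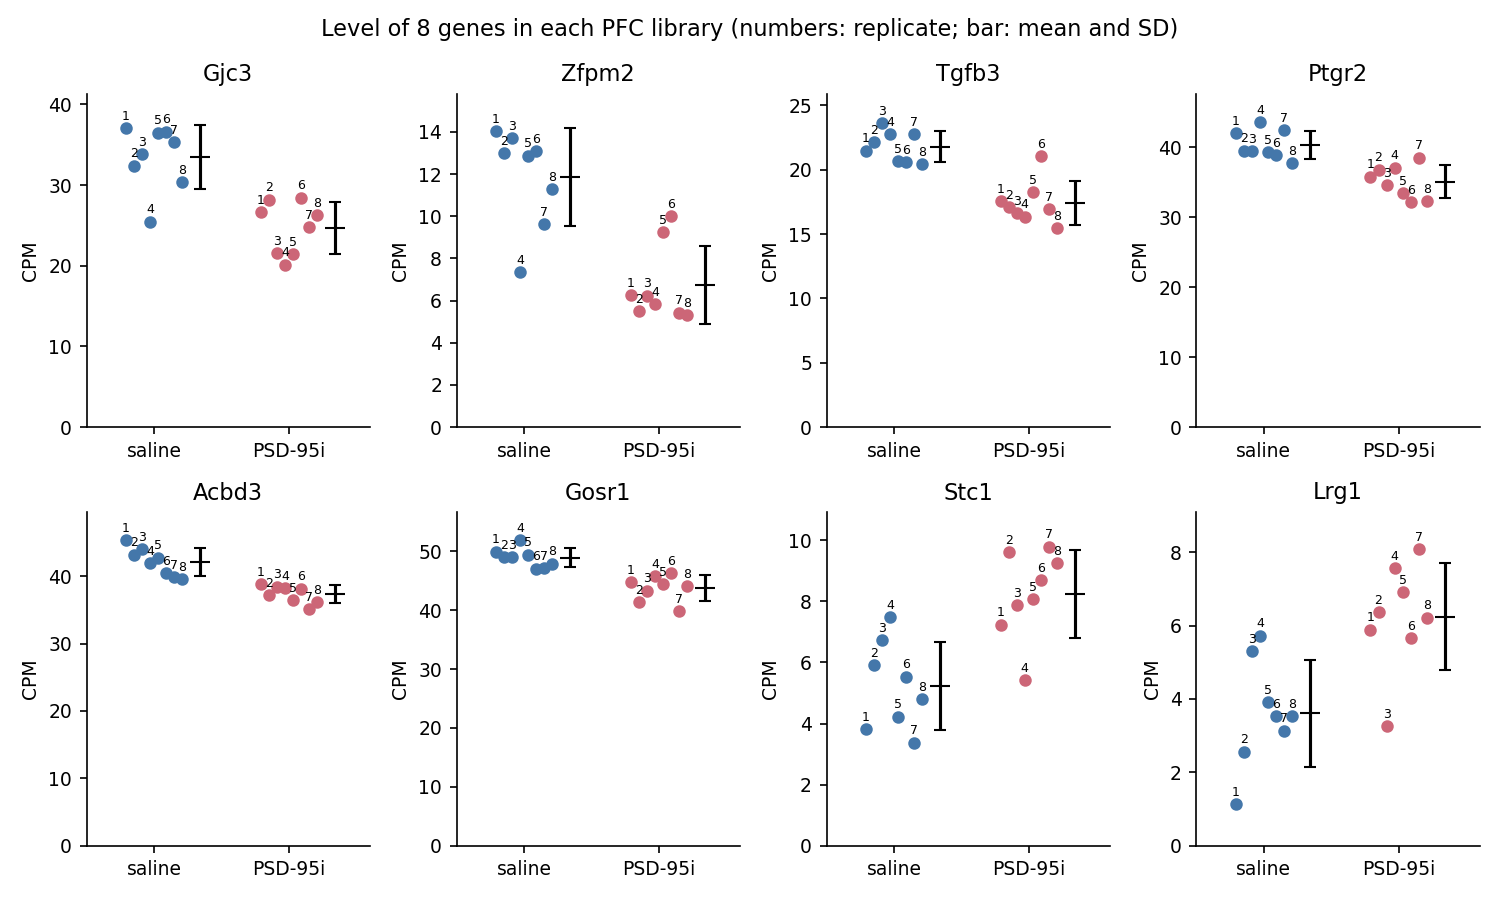
CPM of 8 genes (vertical axes, starting at 0) in each saline and PSD-95i library, numbered by replicate, with the group mean and SD. Acbd3 and Gosr1 have no overlap between groups, saline replicate 4 is lowest of its group for Gjc3 and Zfpm2, and Stc1 and Lrg1 are higher in most PSD-95i libraries.

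Of the higher genes, Stc1, a secreted glycoprotein hormone, had the smallest p. It lay between 3.37 and 7.49 CPM after saline (median 5.16) and between 5.42 and 9.80 after the inhibitor (median 8.39), and all 8 PSD-95i libraries were above the saline median. The log2 change was 0.65 ± 0.15 (SE) without the scores (adjusted p = 0.625, edgeR) and 0.47 ± 0.19 (SE) at equal scores. Lrg1, a secreted acute phase glycoprotein of endothelium, lay between 1.14 and 5.72 CPM after saline (median 3.54) and between 3.27 and 8.08 after the inhibitor (median 6.29). Its log2 change was 0.82 ± 0.20 (SE) and 0.48 ± 0.23 (SE) at equal scores. The ranges of both genes overlapped between groups.

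Other higher genes kept their sizes to a varying degree. Alkbh3, a demethylase of alkylated nucleic acids, had a log2 change of 0.37 without and 0.39 at equal scores. Its exons overlap a predicted gene on the same strand and an antisense gene. Cdk2ap1, an inhibitor of the kinase CDK2, had 0.35 and 0.21 (0.09 at equal scores without saline replicate 4), and Acd, a telomere shelterin protein, 0.20 and 0.15. Il1r1, the interleukin 1 receptor, had 0.61 without and 0.40 at equal scores. Map3k6, a stress kinase, had 0.55 and 0.37, Lurap1l 0.34 and 0.21, Net1 0.35 and 0.17, and Adamts17, a secreted metalloproteinase, 0.37 and 0.18.

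Among the 10 lower genes with the smallest p, those outside the gene lists were less uniform. Unc5b, a netrin receptor, had a log2 change of -0.48 without and -0.23 at equal scores, Plekhh1 -0.47 and -0.16, and Adamtsl2 -0.75 and -0.38. Hhip, which binds hedgehog ligands, had -0.97 and -0.68 at a level of 2.68 CPM after saline and 1.36 after the inhibitor. Of the 10 lower genes, Zfpm2, Gjc3, Tgfb3 and Hhip were under 0.05 in both fits, and of the 10 higher genes Stc1, Lrg1, Cdk2ap1, Acd and Alkbh3 were.

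At equal scores the order of the genes was different. Gpx8, a glutathione peroxidase of the endoplasmic reticulum, came out lowest in p at -1.04 ± 0.24 (SE, adjusted p = 1, edgeR), from -0.38 without the scores. C3ar1, the complement C3a receptor of microglia and macrophages, had -0.84 ± 0.20 (SE) from -0.40, and Ptgr2, a prostaglandin reductase, had -0.28 ± 0.07 (SE) from -0.20. Ptgr2 lay between 37.8 and 43.6 CPM after saline and between 32.2 and 38.5 after the inhibitor, with all 8 PSD-95i libraries below the saline median. Smpdl3a, a phosphodiesterase, Fkbp9, a prolyl isomerase, and Txlnb had -0.34, -0.29 and -0.85, and Lgals9, a galectin, had -0.60 with -0.14 without the scores. Of the higher genes, Gtf3c5, a subunit of RNA polymerase III factor TFIIIC, had 0.44 ± 0.11 (SE), Focad 0.29, Rab11fip1, a Rab11 effector, 0.69, and Xlr3b 1.67. Vps39, Tpd52l2, Spns2, Tha1 and Coro6 had values from 0.17 to 0.63. Ppp1r14a had 0.51 at equal scores and -0.13 without them, with means of 5.01 CPM after saline and 4.66 after the inhibitor.

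Blood and meningeal genes, which are no part of the scores, took larger negative values at equal scores. The 5 red blood cell genes had a median log2 change of -0.34 without the scores, with 0 under 0.05. With scores the median was -0.76 and 5 of 5 were under 0.05 and lower, beside 1.85% of all genes. Hba-a2, a haemoglobin alpha chain, lay between 51.2 and 143 CPM after saline and between 28.5 and 84.4 after the inhibitor, and its log2 change went from -0.36 to -0.76. The summed level of these genes was highest in saline replicate 4 at 308 CPM, the saline library with the lowest laminar and oligodendrocyte scores. With the full scores the median was -0.78, and it was -0.67 without that library. The 9 leptomeningeal genes turned from a median of 0.16, with 8 of 9 positive, to -0.49 with 9 of 9 negative, and 0 were under 0.05 in either fit. Their median without the scores was 0.01 without saline replicate 1 and 0.36 without saline replicate 4. The part of retained blood and meninges in these values was not tested.

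Other cell types of the cortex were near 0. Astrocyte genes had a median log2 change of 0.00 with 5 of 10 positive and 0 under 0.05, and of -0.13 with 8 of 10 negative with scores in the model, and endothelial genes -0.03 with 1 of 9 under 0.05, Itm2a at -0.23. Interneuron genes had a median of 0.05 with 1 of 13 under 0.05: Vip, the peptide of superficial interneurons, at 0.25, which was -0.04 at equal scores. Sst, the peptide of interneurons that are common in deep layers, had -0.36 and 0.07 and was under 0.05 in neither fit. Of 8 mural genes 3 were under 0.05 and higher, beside 2.78% of all genes. They were the smooth muscle genes Acta2 (0.58), Tagln (0.45) and Myh11 (0.43), and at equal scores they had 0.08, 0.16 and 0.01.

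Genes of the postsynaptic density, where the inhibitor binds, were near 0. Of 32 scaffolds, partners and auxiliary proteins of PSD-95, 0 were under 0.05 without the scores, 19 were positive and the median log2 change was 0.02. The log2 changes ran from -0.14 to 0.20, and Kalrn, a signalling protein of dendritic spines, had the smallest p of them, with a log2 change of 0.16. With scores built from the odd members of the depth scores, 25 were negative and 7 positive, and the median was -0.06. Of the 32, 1 was then under 0.05 and lower, the scaffold gene Homer2 (named to complete the count). Of 17 ionotropic glutamate receptor subunits 3 were under 0.05 and lower, beside 3.57% of all genes. They were the kainate receptor genes Grik4 (-0.28), Grik3 (-0.56) and Grik5 (-0.13). At equal scores these had -0.23, 0.14 and -0.01, and 0 of 17 were under 0.05 with the scores of the odd members.

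Activity, stress and metabolic programmes were small. Of 35 immediate early genes 5 were under 0.05 and lower and 1 higher, beside 3.57% and 2.78% of all genes, with a median of -0.08. The lower ones include Nr4a2 and Nptx2, a secreted pentraxin, at -0.32. Ier2 was the higher one at 0.43 and had 0.40 at equal scores. Of 24 cholesterol genes 3 were under 0.05 and lower, the synthesis enzymes Msmo1 (-0.23), Sc5d (-0.17) and Hmgcs1 (-0.16), and 0 were so with the scores. Msmo1 lay between 29.02 and 38.3 CPM after saline and between 27.4 and 31.8 after the inhibitor, all 8 PSD-95i libraries below the saline median. Of 18 glucocorticoid-responsive genes 3 were under 0.05 and higher, Map3k6, Fkbp5 (0.35), a cochaperone of the glucocorticoid receptor, and Klf15 (0.19), and the median was 0.07. At equal scores Fkbp5 and Klf15 had 0.20 and 0.13.

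Interferon-stimulated genes were mostly above 0. Of 21 tested, 19 were positive, 7 were under 0.05 and higher, beside 2.78% of all genes, and the median was 0.22. Rtp4, a chaperone protein, had 0.54, Trim30a 0.46 and Ifitm3, a membrane protein that restricts virus entry, 0.44. With scores built from the odd members of the depth scores 0 of 21 were under 0.05 and the median was 0.17. With the full scores the median was 0.10, and it ran from 0.03 (without saline replicate 4) to 0.14 with 1 library left out. Of 7 inflammatory and acute phase genes tested of 14, 3 were under 0.05 and higher, Lrg1, Il1r1 and Osmr, the oncostatin M receptor (0.39). With the scores of the odd members 2 of them were, and the median went from 0.27 to 0.24. With the full scores the median was 0.20, and Il1r1 was not under 0.05. Of 20 genes of leptin, insulin and feeding signalling 1 was under 0.05, Cartpt, a satiety peptide precursor, at 0.50, and the median was 0.02.

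The PSD-95i effect was also compared between hippocampus and PFC. In a model of all 47 libraries edgeR called 0 of 15658 genes for the difference between the tissues (0%), and 428 were under 0.05 (2.73%). In hippocampus itself edgeR called 0 genes (0%) and 298 were under 0.05 (1.9%). Zfpm2 had a log2 change of 0.17 in hippocampus, Acbd3 0.06, Gosr1 0.04 and Tgfb3 -0.07. These genes were named for their values in PFC, which favours a difference from hippocampus, so the differences are not read as tests. Lrg1 was on the same side in both tissues, at 1.14 in hippocampus, as was Map3k6 at 0.44, both under 0.05. The 15 myelin membrane genes had a median of -0.08 in hippocampus, all 15 below 0 and 0 under 0.05, and 0 of them had a difference between tissues under 0.05.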

How the data were processed

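RNA of PFC was made into stranded poly(A) libraries and read in pairs of 52 bases, per the labels' protocols. Reads were handled with bcl2fastq 2.20.0, STAR and Salmon on GRCm38, per the submitters' processing notes, with the versions of STAR and Salmon and the strand setting not given in the sources used here. Deposited gene and transcript tables hold the authors' estimated counts per gene (45706) and per transcript (109617), not scaled between libraries. No sample column was left out. Here the estimated counts were rounded, and genes passing filterByExpr (minimum count 10, total 15) in 24 PFC libraries were fitted with edgeR 4.0.16 (TMM, robust quasi-likelihood F test, two-sided, Benjamini-Hochberg adjustment) in R 4.3.3. An adjusted p under 0.05 was called. The SE of a log2 change is its size divided by the root of F. Log2 CPM has a prior count of 2.

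The fit at equal scores adds the centred oligodendrocyte and laminar scores. The members of each score were ordered by symbol, and scores of the odd members were used for testing the even ones and the reverse. Genes in no score were tested with the scores of the odd members. The comparison between tissues is an interaction over 47 libraries. Score relations are Pearson and Spearman coefficients. Alternatives included DESeq2 1.42.0, limma 3.58.1, sva 3.50.0 and each library left out. The fits were tested on simulated counts. Python 3.11.15, scipy 1.17.1 and matplotlib 3.10.9 were used.

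The 30 gene lists (376 genes, 349 tested) and the comparison were chosen with earlier results of these data known. Genes named are Dlg4, the 10 with the smallest p in each direction in both fits, up to 4 members of each layer or oligodendrocyte list and 3 of each other list, and genes called in alternatives with at most 5 calls. Positions are from GENCODE M21 on GRCm38. Libraries of one group differed by more than counting noise (chi-square per gene at least 3.02), so none were counted as one. The replicate numbers did not pair the samples. Thalamic neuron genes (7 tested) had a median log2 change of -0.10, olfactory genes (4 tested) 0.21 (-0.23 without PSD-95i replicate 6) and choroid plexus and ependymal genes (2 tested) 0.01, with 1, 0 and 0 under 0.05. Some items are not reported here.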

Additional observations from a re-analysis of the deposited data

Results flagged for a closer look

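Single libraries far from the other 7 of their group were sought in 232 groups of 8 values, and 12 were found (5.17%), where chance gives about 1 in 20 groups. Saline replicate 1 was highest in the striatal score (5.75), in the striatal genes Syndig1l (48.1 CPM), Rgs9 (48.6 CPM) and Adora2a (34.1 CPM), and in Bcl11b, a gene of deep-layer and striatal neurons (127 CPM). Saline replicate 4 was lowest in Gjb1 (4.90 CPM) and highest in Lgals9 (9.67 CPM). PSD-95i replicate 6 was highest in Sox10 (37.1 CPM) and Tgfb2 (10.01 CPM). PSD-95i replicate 1 was highest in Hhip (2.45 CPM), PSD-95i replicate 3 was highest in Vps39 (91.2 CPM), and PSD-95i replicate 8 was lowest in Nptx2 (27.9 CPM). The part of striatal tissue in the values of saline replicate 1 was not tested.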

How the results depend on the processing

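No gene was called without depth scores under edgeR with RLE scaling, an adjusted p under 0.1, both other filters, the 2 groups alone or transcript sums, nor with limma voom, and DESeq2 called 2. Leaving out 1 library gave 0 to 2 calls, the 2 (Zfpm2 and Gjc3) without saline replicate 4, and 599 (without saline replicate 1) to 1274 genes under 0.05. At equal scores 0 were called in all alternatives except the one with no filter beyond 1 count, which called 12, and leaving out 1 library gave 0 calls and 307 to 500 genes under 0.05. With no filter the genes under 0.05 were 1576 without and 1198 at equal scores, with 355 in both, and limma voom counted 742 at equal scores. Genes under 0.05 in both fits were 78 to 171 with 1 library left out, 220 with the oligodendrocyte score only, 241 with 2 surrogate variables and 73 without saline replicates 1 and 4, an alternative chosen after seeing the data. The causes of these differences were not tested. The log2 change of Tgfbr3 turned to -0.03 without PSD-95i replicate 4 and to -0.031 without PSD-95i replicate 7, and ran from -0.031 to 0.10 with 1 library left out. With 2 surrogate variables the myelin membrane median at equal scores was -0.28. The median log2 change of all genes was 0.00 under both scalings.

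Same-numbered saline and PSD-95i libraries had correlations of deviations from -0.21 to 0.27, over 0.1 in 4 of 8 pairs, and 0 saline libraries correlated best with their own number. The fit with the replicate block called 0 genes in both fits, with 1061 genes under 0.05 without and 589 at equal scores. Depth limits genes of a few CPM, such as Hhip and Lrg1, where counting error adds to the spread.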
